A study of Mus musculus with 36 samples.

Results

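Tumour necrosis factor (Tnf) and its relatives in the TNF superfamily of ligands were followed in mouse macrophages that lack or carry an intact N4bp1 gene. The 9 genes, Tnf, Tnfsf4, Tnfsf8, Tnfsf9, Tnfsf10, Tnfsf12, Tnfsf13b, Tnfsf14 and Tnfsf15, were chosen by symbol from 52636 gene identifiers in the deposited tables, and all 9 were among the 13748 genes with enough counts to be tested. The series measured poly(A) RNA by sequencing in bone marrow-derived macrophages grown in M-CSF from N4bp1 knockout (KO) and wild-type (WT) mice; the protocol names the C57BL/6N strain, and the N4bp1 deletion itself is not described in the labels. All groups received R837 (imiquimod, an agonist of Toll-like receptor 7), either for 3 h, for 7 h, or for 3 h followed by 0.5, 1, 2 or 4 h of actinomycin D (ActD), which blocks transcription. That makes 12 groups, each genotype in each of 6 conditions, with 3 libraries per group and 36 in all, each from 1 of 3 individual mice per the labels. The labels do not say whether R837 remained during ActD, and no unstimulated macrophages were analysed here.

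Ligands of the TNF superfamily are made as trimeric membrane proteins, several of which are cut from the cell surface, and they act through receptors that recruit TRAF adaptors or death domain adaptors. Macrophages are a main source of TNF after Toll-like receptor stimulation. The TNF transcript is known for rapid turnover directed by AU-rich elements in its 3′ UTR, to which tristetraprolin (Zfp36) binds, and by a short stem-loop bound by Roquin and Regnase-1.

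The 3′ UTR sites below are shown because the members differed widely in how much transcript was left after ActD, and AU-rich pentamers and short stem-loops are the sequence features known for Tnf turnover. Positions are on GRCm38 with transcripts of GENCODE M21, sequences run 5′ to 3′ along the transcript, and capitals mark each ATTTA pentamer or, in a stem-loop, the 3-base loop. Each window holds at most 30 bases, centred on the part of the 3′ UTR richest in pentamers, or the first such part where several tied. The windows of Tnfsf9, Tnfsf12 and Tnfsf15 hold 1 pentamer each, the first after the stop codon. The pentamer windows of Tnfsf4, Tnfsf8, Tnfsf10, Tnfsf13b and Tnfsf14 are not printed.
Tnf, AU-rich window, chr17:35199678-35199707, minus strand: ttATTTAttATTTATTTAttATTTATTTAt
Tnf, stem-loop, chr17:35199585-35199599, minus strand: gttttcTGTgaaaac
Tnf, stem-loop, chr17:35199430-35199444, minus strand: gctcccCACgggagc
Tnfsf9, pentamer window, chr17:57107603-57107632, plus strand: aactggacttggtATTTAttctgagcatag
Tnfsf4, stem-loop, chr1:161417674-161417686, plus strand: ggtggTGTccacc
Tnfsf14, stem-loop, chr17:57190290-57190302, minus strand: cctgaTATtcagg
Tnfsf12, pentamer window, chr11:69686294-69686323, minus strand: ttgtgggaaggggATTTAggctttggggaa
Tnfsf15, pentamer window, chr4:63729447-63729476, minus strand: gtttagctatataATTTAggaacccaatat

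The sense strand of each 3′ UTR was searched for ATTTA, for the heptamer TATTTAT that contains it, and for stems of at least 5 base pairs around a 3-base pyrimidine-purine-pyrimidine loop, counting overlapping copies. The 3′ UTR of Tnf (764 bases) held 8 ATTTA pentamers, 8 TATTTAT heptamers and 2 such stem-loops, and 5 of the pentamers lay inside the window printed above. Only 0.061% of 4922 3′ UTRs of like length (up to 1.5 times shorter or longer, the member itself included) held at least as many heptamers. The 3′ UTR of Tnfsf9 was the shortest of the 9 (253 bases) and held 2 heptamers, a number reached by 0.883% of 3398 3′ UTRs of like length. The 3′ UTRs of Tnfsf8 (2799 bases) and Tnfsf10 (3998 bases) held 3 heptamers each, Tnfsf13b (3631 bases) and Tnfsf14 (1019 bases) held 1 each, and Tnfsf4, Tnfsf12 and Tnfsf15 held none. Besides Tnf, a stem-loop was found in Tnfsf4 and Tnfsf14. Of 20510 annotated 3′ UTRs of at least 50 bases, 64.3% held an ATTTA, 26.8% a TATTTAT and 20.3% a stem-loop, so a single match is a common feature and no more than a match of letters.

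**Figure D1:**
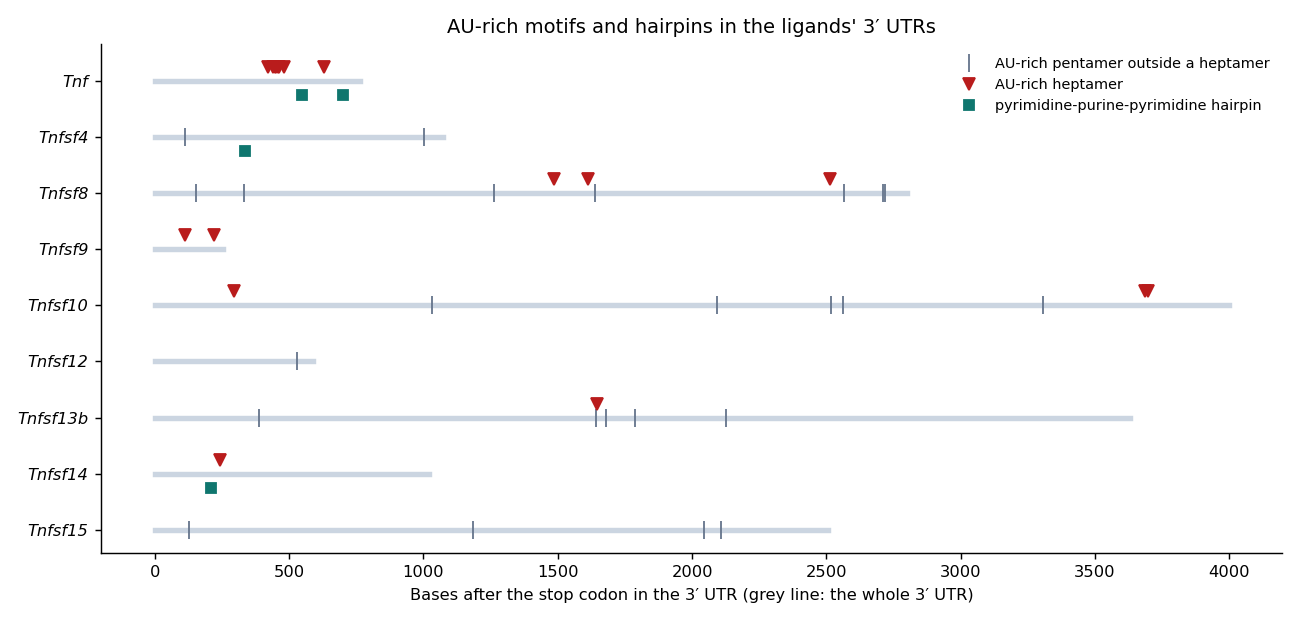
Map of the 3′ UTRs of the 9 ligands, drawn to scale in bases after the stop codon, with the positions of TATTTAT heptamers, of other ATTTA pentamers and of stem-loops. Each heptamer is placed at the start of the ATTTA inside it. Of the 8 heptamers of Tnf in a UTR of 764 bases, 7 are placed between bases 421 and 482 and the other at base 631. The long UTRs of Tnfsf8 and Tnfsf10 hold 3 each.

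Depth was 20.3 to 46.1 M gene counts per library (median 26.3 M), and counts of the members over the libraries went from 370 to 59577 for Tnf but only from 1 to 42 for Tnfsf8, 5 to 96 for Tnfsf13b and 9 to 240 for Tnfsf14, so counting error limits the last 3. Libraries of a group differed by more than sampling noise in all 36 pairs (chi-square per gene 2.33 to 50.68). N4bp1 was reduced but not absent in libraries labelled KO, at 84.1 ± 2.45 CPM (counts scaled to the size of the library by TMM) against 134 ± 12 CPM in WT at 3 h, and 143 ± 1.99 CPM against 175 ± 6.91 CPM in WT at 7 h (SD, n = 3 libraries here and throughout). After 2 h of ActD N4bp1 measured 84.9 ± 3.08 CPM in libraries labelled KO, against 80.2 ± 7.85 CPM in WT, and after 4 h 87.7 ± 9.52 CPM, against 57.6 ± 5.11 CPM in WT. A count over the whole gene cannot be placed relative to a deletion that is not described, so it does not check the labels, and KO and WT mean libraries labelled so, above all at 2 and 4 h of ActD. Of the 6 comparisons of KO with WT, leaving out 1 library moved the number of all genes called by more than 1.5 times only at 3 h, where 2202 genes were called without KO replicate 1 and 2375 without WT replicate 3, against 3818 with all libraries. The 5 ligands called at 3 h passed in each of these.

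Per length of transcript, Tnf was the most abundant of the 9 ligands at 3 h of R837, at 1018 ± 20.5 RPKM in KO and 536 ± 6.96 RPKM in WT, using the RPKM of the authors' deposited tables. Tnfsf9, which encodes the ligand of the T cell receptor CD137, came next at 219 ± 4.28 RPKM in KO and 84.8 ± 2.04 RPKM in WT. Tnfsf12, encoding TWEAK, followed in both genotypes, at 14.1 ± 0.419 RPKM in KO and 16.1 ± 1.29 RPKM in WT. The order then differed between genotypes: Tnfsf4 (10.4 ± 0.449 RPKM) stood above Tnfsf10 (5.87 ± 0.483 RPKM) in KO, and below it in WT, where Tnfsf4 was at 5.22 ± 0.72 RPKM and Tnfsf10 at 11.7 ± 0.807 RPKM. Tnfsf15 was at 3.37 ± 0.32 RPKM in KO and 1.29 ± 0.108 RPKM in WT, and Tnfsf14 at 2.77 ± 0.379 RPKM in KO and 2.37 ± 0.494 RPKM in WT. Tnfsf13b and Tnfsf8 were the lowest, under 0.5 RPKM in both genotypes. The labels call the cells macrophages, and the 10 macrophage markers summed to 21669 to 25154 CPM in KO and 22605 to 26265 CPM in WT at 3 h, with none at 0.

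**Figure D2:**
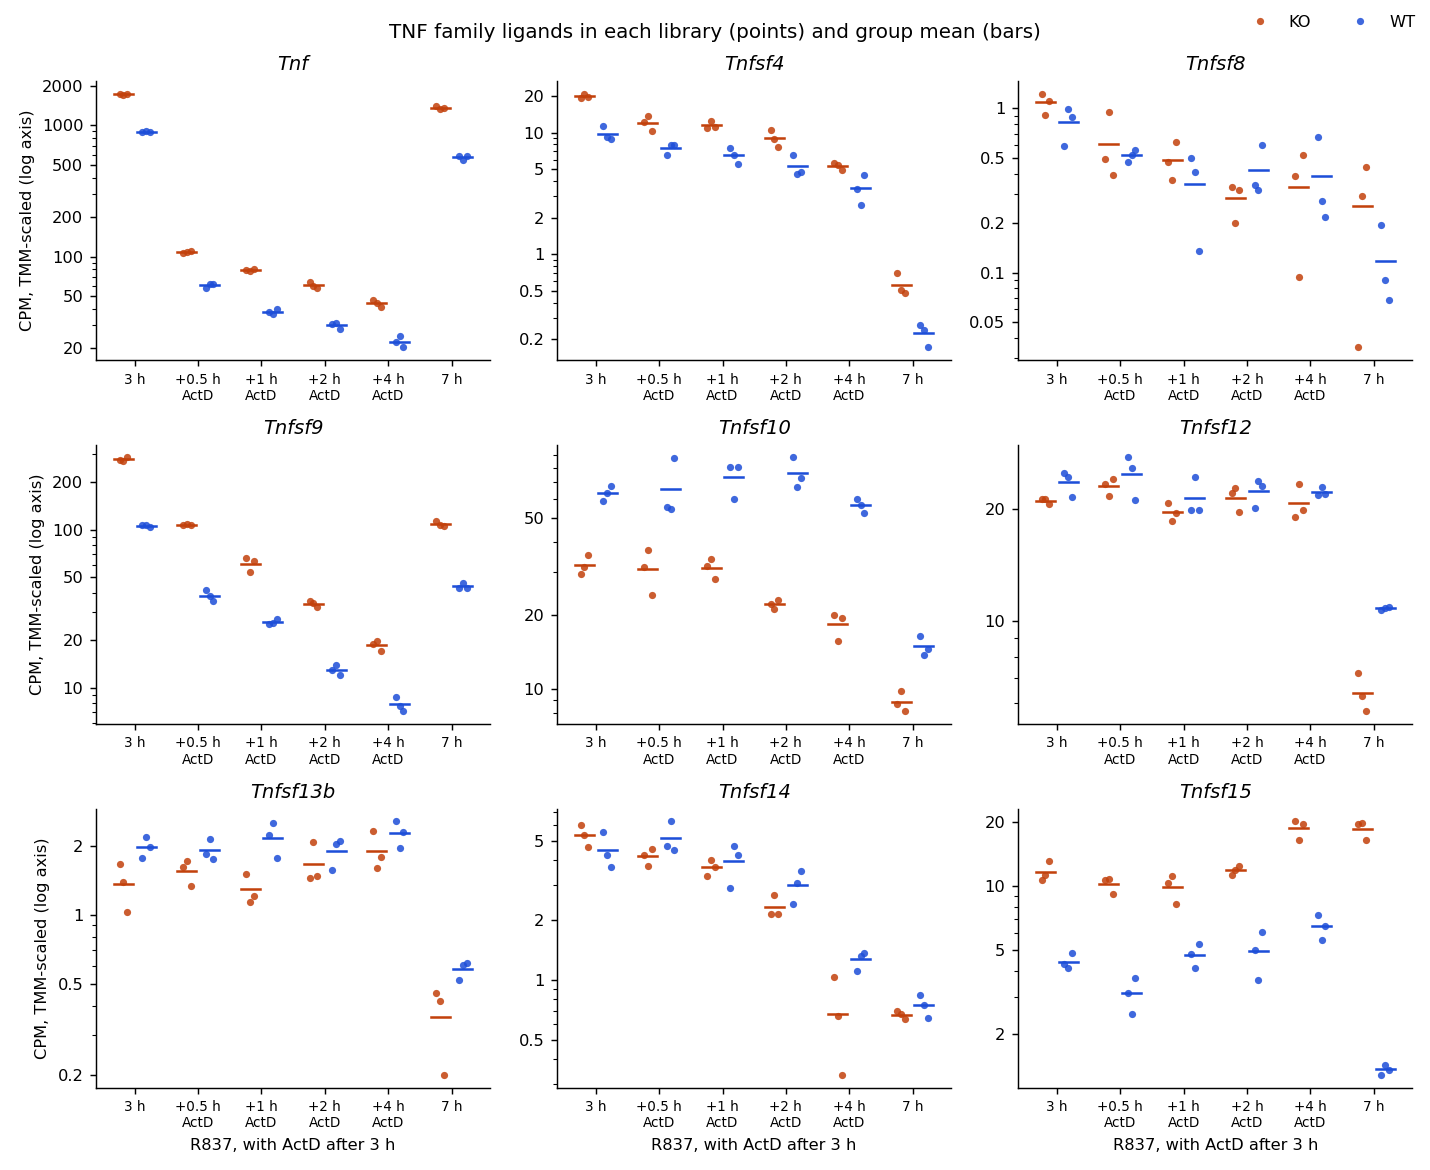
TMM-normalized CPM (log axis) of each of the 9 ligands in every library, by condition, with KO left of WT; each point is 1 library and each bar the mean of 3. Tnf, Tnfsf4, Tnfsf9 and Tnfsf15 sit above WT in all 6 conditions, and Tnfsf10 sits below WT in all 6.

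KO was compared with WT in each condition to ask which ligand transcripts depend on N4bp1. At 3 h of R837, 4 of the 9 ligands were higher in KO (Tnf, Tnfsf4, Tnfsf9 and Tnfsf15) and 1 was lower (Tnfsf10) by edgeR's quasi-likelihood test at an adjusted p of 0.05, where 15.2% of all genes tested were higher and 12.6% lower. At 7 h the same 4 were higher, and Tnfsf10 and Tnfsf12 were lower, against 15.5% and 15.1% of all genes. The median log2 fold change of the 9 ligands was 0.4 at 3 h and 1.05 at 7 h, and that of all genes 0.01 and -0.01. Both medians of the ligands are the values of Tnfsf8 (0.4 ± 0.38 and 1.05 ± 0.68, SE), which had few reads and was not called. They therefore do not show a common shift of the 9 ligands. The values were all relative to the rest of each library, and in bulk RNA fewer cells of a type and less RNA per cell cannot be told apart.

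Tnf (ENSMUSG00000024401, chr17:35199381-35202007), the founding ligand and an early inflammatory cytokine, had 1746, 1700 and 1740 CPM in the KO libraries and 894, 907 and 886 CPM in the WT libraries at 3 h. At 7 h it had 1395, 1324 and 1348 CPM in KO and 583, 550 and 584 CPM in WT. Each KO library lay above each WT library at both times. The log2 fold change was 0.95 ± 0.06 at 3 h (SE, 1.93-fold, edgeR adjusted p = 4.81e-16) and 1.24 ± 0.06 at 7 h (2.37-fold, edgeR adjusted p = 1.3e-20).

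Tnfsf15 (ENSMUSG00000050395, chr4:63727084-63745113), encoding TL1A, had 10.7, 11.3 and 13.1 CPM in KO and 4.28, 4.1 and 4.82 CPM in WT at 3 h. At 7 h it had 19.5, 19.8 and 16.4 CPM in KO and 1.29, 1.44 and 1.36 CPM in WT. The 2 genotypes were thus further apart at 7 h than at 3 h, with no overlap at either time. The log2 fold change was 1.4 ± 0.14 at 3 h (2.64-fold, edgeR adjusted p = 7.81e-10) and 3.76 ± 0.16 at 7 h (13.5-fold, edgeR adjusted p = 2.39e-21), the largest change among the 9 ligands in any of the 6 conditions.

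Among the ligands that co-stimulate T cells, Tnfsf9 (ENSMUSG00000035678, chr17:57105325-57107757) had 277, 273 and 287 CPM in KO and 107, 108 and 104 CPM in WT at 3 h, and 113, 107 and 106 CPM in KO and 43.1, 45.9 and 43.1 CPM in WT at 7 h. The groups did not overlap, and the log2 fold change was similar at both times, 1.39 ± 0.07 at 3 h (2.62-fold, edgeR adjusted p = 1.23e-18) and 1.3 ± 0.07 at 7 h (2.47-fold, edgeR adjusted p = 1.57e-18). The annotated span of Tnfsf9 (130 to 9464 reads per library) overlaps Gm11110, a non-coding gene on the opposite strand (27 to 200 reads). Since the strand setting is not given in the sources used here, their reads could not be told apart where they overlap. Tnfsf4 (ENSMUSG00000026700, chr1:161395409-161418410), encoding the ligand of the receptor OX40, had 19.3, 20.9 and 19.5 CPM in KO and 11.4, 9.29 and 8.81 CPM in WT at 3 h, a log2 fold change of 1.02 ± 0.13 (2.03-fold, edgeR adjusted p = 1.44e-07). At 7 h Tnfsf4 was nearly gone from both genotypes, with 20, 12 and 12 reads in the KO libraries and 8, 8 and 5 reads in the WT libraries. The 7 h difference (1.32 ± 0.41, edgeR adjusted p = 0.0109) no longer passed without KO replicate 1 (1.11, edgeR adjusted p = 0.0797).

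Tnfsf14 (ENSMUSG00000005824, chr17:57189492-57194177), encoding LIGHT, a ligand of HVEM and of the lymphotoxin beta receptor, overlapped between genotypes at 3 h, with 5.98, 5.35 and 4.65 CPM in KO and 5.53, 4.24 and 3.71 CPM in WT. It was also within 0.639 to 0.701 CPM in KO and 0.648 to 0.842 CPM in WT at 7 h, and neither difference passed (edgeR adjusted p = 0.301 and 0.76). Tnfsf8 (ENSMUSG00000028362, chr4:63831308-63861347), encoding the ligand of CD30, overlapped in all 6 conditions and passed in none. Its log2 fold change was 0.4 ± 0.38 at 3 h and 1.05 ± 0.68 at 7 h, an interval too wide to show either a change or its absence.

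Tnfsf10 (ENSMUSG00000039304, chr3:27317028-27342427), encoding TRAIL, a ligand that can trigger apoptosis, moved the other way. It had 29.5, 31.4 and 35.4 CPM in KO and 58.5, 63.3 and 67.2 CPM in WT at 3 h, and 8.65, 9.8 and 8.11 CPM in KO and 16.5, 13.8 and 14.6 CPM in WT at 7 h. KO libraries lay below WT libraries in each of the 6 conditions. The log2 fold change was -0.98 ± 0.14 at 3 h (edgeR adjusted p = 1.02e-06) and -0.76 ± 0.16 at 7 h (edgeR adjusted p = 0.00034).

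Tnfsf12 (ENSMUSG00000097328, chr11:69686250-69695849), the ligand of Fn14, had 21.3, 21.3 and 20.6 CPM in KO and 25, 24.3 and 21.5 CPM in WT at 3 h, a difference that did not pass (-0.16 ± 0.09, edgeR adjusted p = 0.202). At 7 h it had 7.22, 6.26 and 5.71 CPM in KO and 10.7, 10.8 and 10.9 CPM in WT, and was lower in KO (-0.75 ± 0.11, edgeR adjusted p = 9.39e-07). Its annotated span overlaps Tnfsfm13, a read-through transcript on the same strand (42 to 270 reads per library), and the antisense gene Tnfsf13os (7 to 87 reads). How reads shared by genes on 1 strand were counted, and with which strand setting, is not given in the sources used here. Reads of these genes could therefore not be told apart where they overlap. Tnfsf13b (ENSMUSG00000031497, chr8:10006467-10039072), encoding the B cell survival factor BAFF, had 1.67, 1.39 and 1.03 CPM in KO and 1.77, 2.19 and 1.97 CPM in WT at 3 h. The KO libraries were lower without overlap at 3 h and 7 h, but neither difference passed (-0.51 ± 0.21, edgeR adjusted p = 0.0645, and -0.67 ± 0.33, edgeR adjusted p = 0.121). Without KO replicate 1 the 3 h difference passed (-0.7, edgeR adjusted p = 0.0449).

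**Figure D3:**
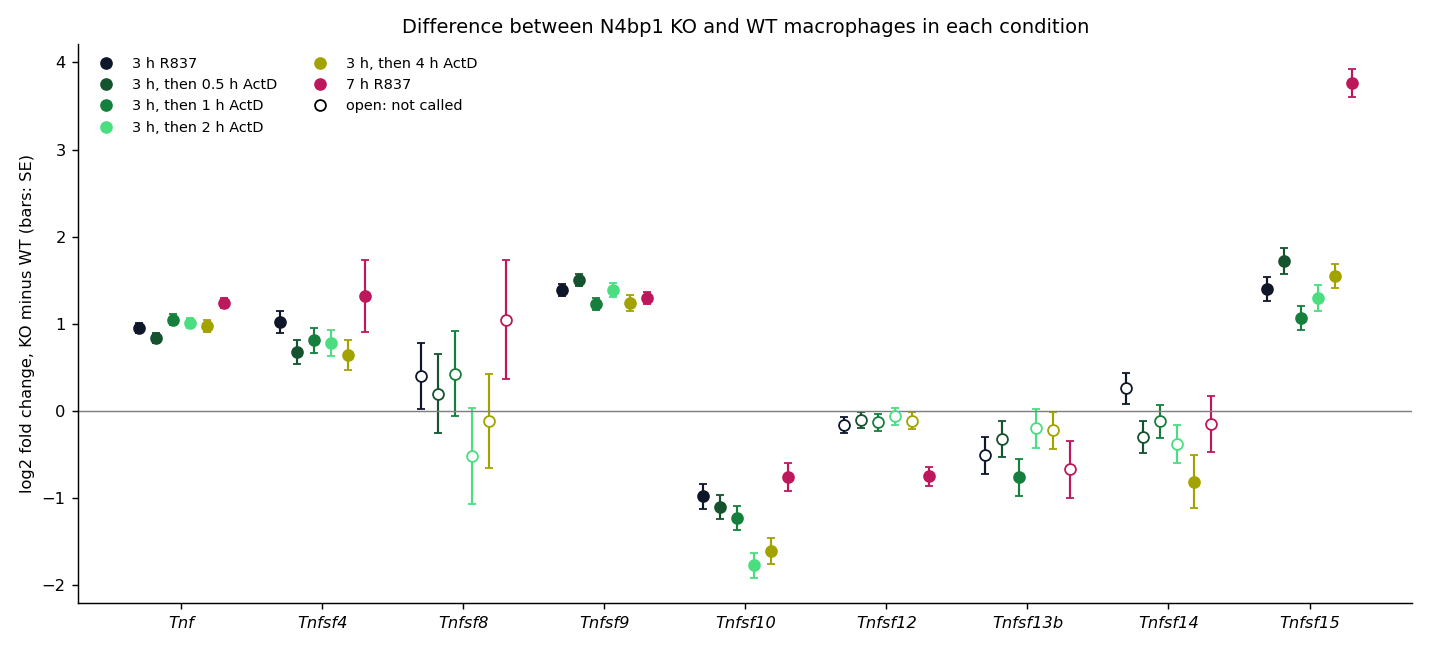
Log2 fold change of KO over WT (± SE) for each of the 9 ligands in the 6 conditions, with filled points where the edgeR adjusted p was below 0.05. Tnf, Tnfsf4, Tnfsf9 and Tnfsf15 are called higher and Tnfsf10 lower in each condition, and Tnfsf15 at 7 h stands apart at 3.76.

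The genotype difference was also taken at each time of ActD, when new transcription was blocked. The same 4 ligands were higher in KO and Tnfsf10 was lower at 0.5, 1, 2 and 4 h of ActD. Over all genes, 13.7% were higher and 12.7% lower in KO at 0.5 h, 7.51% and 9.92% at 1 h, 14.7% and 15.4% at 2 h, and 17.7% and 17.9% at 4 h. At 2 and 4 h these directions rest on the labels, since N4bp1 was not lower in libraries labelled KO there.

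After 4 h of ActD, Tnf had 46.8, 44.5 and 41.6 CPM in KO and 22.4, 24.6 and 20.3 CPM in WT, so the libraries stayed apart although little transcript was left. Its log2 fold change was 0.84 to 1.05 at the 4 ActD times. Tnfsf9 had 18.9, 19.8 and 17.0 CPM in KO and 8.75, 7.72 and 7.12 CPM in WT after 4 h, and its log2 fold change was 1.23 to 1.5 at these times. Tnfsf15 had 20.2, 16.5 and 19.5 CPM in KO and 7.3, 5.57 and 6.52 CPM in WT after 4 h, where its log2 fold change was 1.55, against 1.07 to 1.72 at the other 3 times. For Tnf, Tnfsf9 and Tnfsf15 no KO library came down to a WT library of the same condition.

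The genotype difference of Tnfsf10 was numerically larger at 2 and 4 h of ActD than without it. After 2 h it had 22.3, 21.2 and 23.1 CPM in KO and 88.3, 66.9 and 73.0 CPM in WT, a log2 fold change of -1.77 ± 0.14 (3.42-fold lower, edgeR adjusted p = 1.83e-12). After 4 h it had 20.0, 15.7 and 19.5 CPM in KO and 60.0, 56.2 and 52.6 CPM in WT (3.04-fold lower, edgeR adjusted p = 3.5e-11). Both groups of KO libraries lay far below the WT libraries, and the test of the difference between 4 h of ActD and none gave -0.63 ± 0.2, which did not pass (edgeR adjusted p = 0.223).

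The smaller differences after ActD were less stable. Tnfsf4 was higher in KO by 0.64 ± 0.17 after 4 h (edgeR adjusted p = 0.00341), but by 0.45 without WT replicate 2 (edgeR adjusted p = 0.0562). Tnfsf14 had 43, 14 and 9 reads in KO and 20, 29 and 25 reads in WT after 4 h. In CPM these are 1.04, 0.659 and 0.334 in KO and 1.11, 1.32 and 1.37 in WT, lower in KO by edgeR (-0.81 ± 0.3, adjusted p = 0.0318) but not when only these 2 groups were fitted (-0.82, edgeR adjusted p = 0.0795). Leaving out 1 library gave from -1.4, without KO replicate 1, to -0.5, without KO replicate 3 (edgeR adjusted p = 0.00315 and 0.199), and the call was also lost without KO replicate 2, WT replicate 2 or WT replicate 3. Tnfsf13b was lower in KO after 1 h (-0.76 ± 0.21, edgeR adjusted p = 0.00889), with 1.5, 1.14 and 1.21 CPM in KO and 2.24, 2.52 and 1.77 CPM in WT, and without WT replicate 2 it was not called (-0.64, edgeR adjusted p = 0.0727).

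The change with time was taken as 7 h minus 3 h of R837 within each genotype. In KO, 1 ligand was higher at 7 h (Tnfsf15) and the other 8 were lower, where 28.7% of all genes were higher and 31.7% lower. In WT all 9 were lower, against 27.3% of all genes higher and 30.7% lower. The median log2 change of the 9 was -1.86 in KO and -1.77 in WT, and -0.03 for all genes in both.

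Tnfsf4 fell the furthest of the 9 ligands, to 2.83% of its 3 h level in KO (-5.12 ± 0.2 on the log2 scale) and 2.27% in WT (-5.42 ± 0.24). Tnf fell least, to 78.4% of its 3 h level in KO (-0.35 ± 0.06, edgeR adjusted p = 1.04e-06) and 63.9% in WT (-0.65 ± 0.06). Tnfsf9 was at 39.0% of its 3 h level in KO and 41.4% in WT. Tnfsf15 went opposite ways, to 159% of its 3 h level in KO (0.67 ± 0.13, edgeR adjusted p = 1.64e-05) and 31.1% in WT (-1.68 ± 0.19, edgeR adjusted p = 3.24e-10). The log2 changes of the other 5 ranged from -2.99 for Tnfsf14 to -1.71 for Tnfsf12 in KO, and from -2.76 for Tnfsf8 to -1.13 for Tnfsf12 in WT.

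The genotype difference in this change was tested as an interaction, for which 12.3% of all genes were called. It passed for 3 of the 9: Tnfsf15 (2.36 ± 0.22, edgeR adjusted p = 1.83e-10), Tnf (0.29 ± 0.08, edgeR adjusted p = 0.00879) and Tnfsf12 (-0.59 ± 0.15, edgeR adjusted p = 0.00453). The Tnf value was 0.1 (edgeR adjusted p = 0.651) when libraries were scaled to 24 ribosomal protein and elongation factor genes instead of by TMM, which shifted this contrast by -0.2 for the median gene, and 0.28 (edgeR adjusted p = 0.067) without a filter on low counts. The KO mean of Tnfsf15 was thus higher at 7 h than at 3 h and the WT mean lower.

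**Figure D4:**
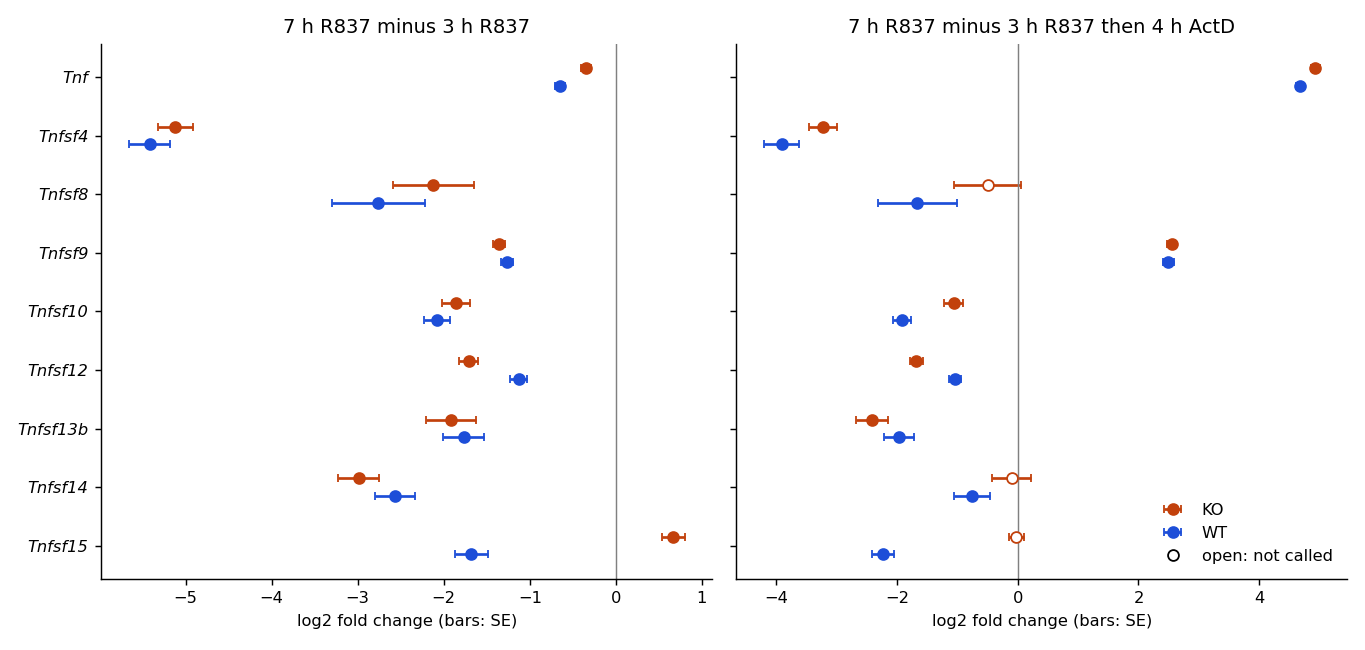
Log2 change of each ligand from 3 h to 7 h of R837, and at 7 h of R837 against 4 h of ActD after 3 h of R837, in KO and WT (± SE; open points did not pass). Tnfsf15 is the member on opposite sides of 0 in the first comparison, at 0.67 in KO and -1.68 in WT.

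The ActD course measured how much of each transcript was left once transcription was blocked. Because no spike-in was used, values are relative to the average transcript, and a transcript that decays like the average has a slope of 0. Over 0 to 4 h of ActD, 6 of the 9 ligands fell and 2 rose in KO, where 35.8% of all genes fell and 32.3% rose, and 4 fell and 1 rose in WT, where 34.8% fell and 35.5% rose. Tnf, Tnfsf4, Tnfsf9 and Tnfsf14 fell in both genotypes, Tnfsf8 and Tnfsf10 in KO, Tnfsf15 rose in both and Tnfsf13b in KO. Without KO replicate 1 at 4 h the Tnfsf13b slope in KO was no longer called (0.09 per h, edgeR adjusted p = 0.125), and without WT replicate 1 at 4 h Tnfsf8 was also called in WT (-0.4 per h, edgeR adjusted p = 0.0126). Scaled to the ribosomal genes, neither Tnfsf15 nor Tnfsf13b rose in either genotype. With that scaling Tnfsf12 fell in both, at -0.15 per h in KO and -0.2 per h in WT. Tnfsf10 (-0.21 per h), Tnfsf8 (-0.41 per h) and Tnfsf13b (-0.13 per h) then also fell in WT. Over all genes 7917 then fell and 703 rose in KO, and 9137 fell and 677 rose in WT. Over 0 to 2 h of ActD no rise was called for Tnfsf15, at 0.02 per h in KO and 0.15 per h in WT (edgeR adjusted p = 0.84 and 0.246). The same held for Tnfsf13b in KO (0.1 per h, edgeR adjusted p = 0.437).

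Tnf lost most of its transcript in the first 0.5 h. In KO it had 106, 108 and 111 CPM after 0.5 h, against the 1700 to 1746 CPM without ActD, and in WT 57.6, 61.8 and 61.8 CPM against 886 to 907 CPM. That left 6.27% in KO and 6.74% in WT after 0.5 h, then 4.56% and 4.25% after 1 h, 3.5% and 3.35% after 2 h, and 2.56% in KO and 2.5% in WT after 4 h. The 2 genotypes followed nearly the same course in percent, while the levels stayed apart. The drop in the first 0.5 h was -3.99 ± 0.06 in KO and -3.89 ± 0.06 in WT on the log2 scale, an apparent half-life of 7.52 min in KO and 7.71 min in WT, and between 0.5 and 4 h it was 163 min in KO and 147 min in WT. A single slope (-1.16 ± 0.24 per h in KO, -1.18 ± 0.25 per h in WT) therefore describes neither phase.

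Tnfsf9 fell more evenly: 38.7% was left after 0.5 h in KO and 36% in WT, 21.9% and 24.6% after 1 h, 12.2% in both after 2 h, and 6.66% in KO and 7.39% in WT after 4 h. Its apparent half-life was 21.9 min in KO and 20.3 min in WT in the first 0.5 h, and 82.7 min in KO and 92.1 min in WT afterwards. Tnfsf4 fell more slowly, with 26.9% left after 4 h in KO and 35.5% in WT, and Tnfsf14 had 12.7% left in KO and 28.3% in WT. Tnf and Tnfsf9, the 2 members with the most TATTTAT per length of 3′ UTR, had the least transcript left after 0.5 h. From 0.5 to 4 h Tnf fell less (-1.29 in KO and -1.43 in WT) than Tnfsf14 (-2.53 in KO and -2.02 in WT), which held 1 heptamer. These are descriptions of 9 genes, and a link between heptamers and loss was not tested. Tnfsf8, with 3 heptamers, had too few reads to place. Tnfsf10, also with 3 heptamers, in a 3′ UTR of 3998 bases, was at 96.1% in KO and 105% in WT after 0.5 h.

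After 0.5 h of ActD 3 ligands were lower in each genotype, Tnf, Tnfsf9 and Tnfsf4 in KO and Tnf, Tnfsf9 and Tnfsf15 in WT, against 4.34% of all genes lower in KO and 3.51% in WT. After 4 h 6 were lower in KO and 5 in WT, against 36.7% and 36.6% of all genes. Tnfsf12 stayed near its starting share of the library, at 98.7% in KO and 94.1% in WT after 4 h. Tnfsf10 was at 57.3% in KO, where it was called lower (-0.79 ± 0.15, edgeR adjusted p = 9.15e-06), and at 89.3% in WT, where it was not called. These values are by TMM, and by ribosomal scaling the slopes of Tnfsf12 in both genotypes and of Tnfsf10 in WT were called as falls. Tnfsf15 had 87.4% in KO and 70.9% in WT after 0.5 h, and 160% in KO and 147% in WT after 4 h, a rise relative to the average transcript.

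**Figure D5:**
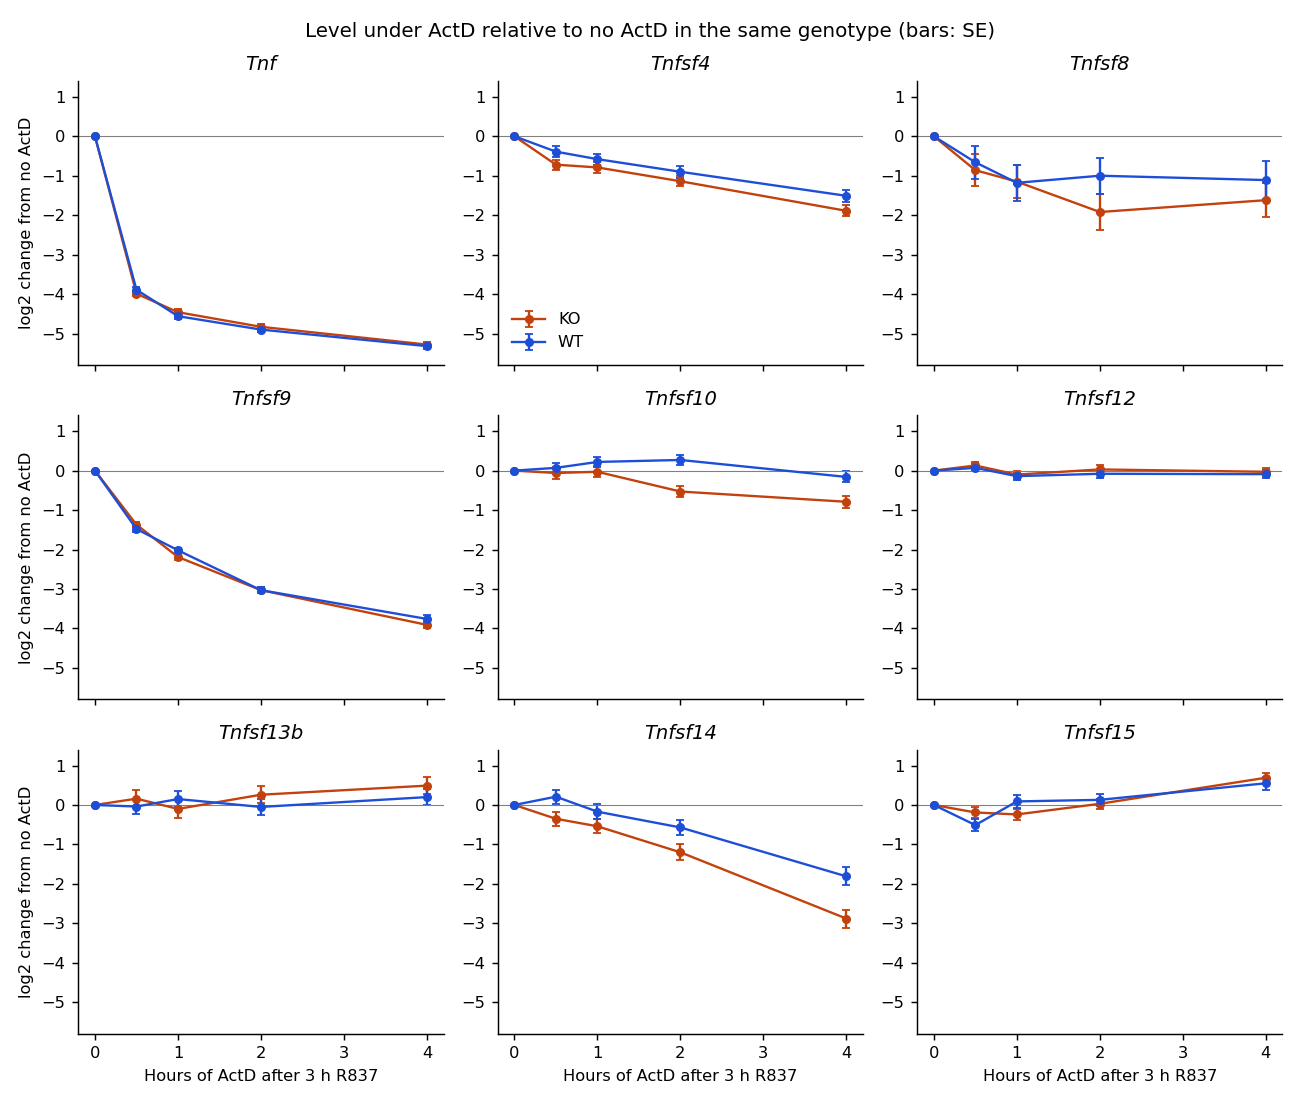
Log2 change from no ActD (± SE) after 0.5, 1, 2 and 4 h of ActD for each ligand in KO and WT, relative to the average transcript. Tnf is at -3.99 in KO and -3.89 in WT after 0.5 h, and Tnfsf12 stays near 0 in both.

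The slopes of KO and WT were then compared for each ligand, which asks whether N4bp1 changes the rate of loss. The difference passed for 0 of the 9 ligands in edgeR and for 0 in DESeq2, and over all genes 0.0665% passed in edgeR. At an unadjusted p of 0.05 the difference counted 2 members, Tnfsf10 (-0.19 ± 0.05 per h, edgeR adjusted p = 0.329) and Tnfsf14 (-0.24 ± 0.09 per h, edgeR adjusted p = 0.448), and 1141 of all genes. For Tnf the slope difference was 0.02 ± 0.29 per h, whose error is wide because a line describes its course poorly, so single times were also tested. The genotype difference in the change after 0.5 h passed for 0 of the 9 (0.0218% of all genes) and was -0.1 ± 0.08 for Tnf and 0.11 ± 0.1 for Tnfsf9. After 4 h it also passed for 0 of the 9 (0.291% of all genes) and was 0.03 ± 0.09 for Tnf and -0.15 ± 0.11 for Tnfsf9.

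Levels at 7 h of R837 were set against those at the same total time with ActD in the last 4 h, a comparison that shares its 7 h libraries with the one over time. In KO 2 ligands were higher at 7 h of R837 (Tnf and Tnfsf9) and 4 were lower (Tnfsf4, Tnfsf10, Tnfsf12 and Tnfsf13b), where 38% of all genes were higher and 36.1% lower. In WT the same 2 were higher and the other 7 lower, where 37.9% of all genes were higher and 37.3% lower. Of these 7, Tnfsf8 (-1.66) lost its call without WT replicate 2 or 3 at 7 h (-1.49 and -1.41) or WT replicate 1 after ActD (-1.02, edgeR adjusted p = 0.233). Tnfsf14 (-0.76) lost its call without WT replicate 3 at 7 h (-0.67) or WT replicate 2 or 3 after ActD (-0.69 and -0.68, edgeR adjusted p = 0.0719 and 0.0697). Scaled to the ribosomal genes, 5 were lower in WT, without Tnfsf8 and Tnfsf14, where 1508 of all 13748 genes were lower and 8531 higher. Tnf was higher at 7 h of R837 by 4.93 ± 0.07 in KO and 4.67 ± 0.07 in WT on the log2 scale, and Tnfsf9 by 2.55 ± 0.07 in KO and 2.49 ± 0.09 in WT. Tnfsf4 was lower without ActD than with it, by -3.23 ± 0.23 in KO and -3.91 ± 0.29 in WT.

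Tnfsf15 separated the genotypes here too. In KO it reached 18.6 ± 1.87 CPM at 7 h of R837 and 18.7 ± 1.95 CPM after 4 h of ActD (-0.02 ± 0.12, edgeR adjusted p = 0.895), and in WT it had 1.37 ± 0.0738 CPM at 7 h of R837 and 6.46 ± 0.865 CPM after 4 h of ActD (-2.23 ± 0.18, edgeR adjusted p = 6.6e-14). The genotype difference passed for 4 of the 9, where 14.6% of all genes passed: Tnfsf15 (2.21 ± 0.22, edgeR adjusted p = 1.11e-09), Tnfsf10 (0.85 ± 0.22, edgeR adjusted p = 0.00643), Tnfsf12 (-0.64 ± 0.15, edgeR adjusted p = 0.00209) and Tnf (0.26 ± 0.09, edgeR adjusted p = 0.0338). Scaling to the ribosomal genes moved the median of all genes by 0.43 in KO and 0.71 in WT in this comparison. With it the Tnf difference was -0.01 and the Tnfsf10 difference 0.58 (edgeR adjusted p = 0.0769), and neither passed. The Tnf difference also lost its call with 1 library left out, KO replicate 1 or 3 or WT replicate 2 at 7 h, or KO replicate 2 or 3 or WT replicate 1 or 2 after ActD (0.18 to 0.27, edgeR adjusted p up to 0.186).

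Over the 12 groups the order of the mean levels differed by member. For Tnf the top 4 were KO at 3 h, KO at 7 h, WT at 3 h and WT at 7 h, and only KO at 2 h of ActD (60.6 CPM) and WT at 0.5 h of ActD (60.4 CPM) overlapped as neighbours in the order. For Tnfsf9 KO at 7 h (109 CPM), KO at 0.5 h of ActD (108 CPM) and WT at 3 h (106 CPM) were neighbours that overlapped. For Tnfsf15 KO at 4 h of ActD and KO at 7 h were the highest and overlapped, and WT at 7 h was the lowest, apart from the rest. For Tnfsf10 the 5 highest groups were the WT groups other than 7 h, and neighbours among these overlapped. The lowest of the 5, WT at 4 h of ActD (56.3 CPM), did not overlap the next group, KO at 3 h (32.1 CPM). KO at 7 h was the lowest of the 12 groups. All neighbours overlapped for Tnfsf8.

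Other genes of the pathway were counted from lists of ligands, receptors, processing enzymes, adaptors and transcript decay factors, to be read against the 15.2% of all genes higher and 12.6% lower in KO at 3 h, and the 15.5% higher and 15.1% lower at 7 h. Of the 9 TNF family ligands outside the member list 6 were tested, of which 3 were higher and 0 lower in KO at 3 h, and 2 higher and 0 lower at 7 h. Tnfsf11, encoding RANKL, had a mean of 1.26 ± 0.423 CPM in KO and 0.599 ± 0.0673 CPM in WT at 3 h (1.04 ± 0.35, edgeR adjusted p = 0.0231), and of 1.52 ± 0.348 CPM in KO and 0.252 ± 0.14 CPM in WT at 7 h (2.59 ± 0.4, edgeR adjusted p = 1.57e-06). Lta (0.97, edgeR adjusted p = 0.0402) and Cd70 (1.29, edgeR adjusted p = 0.0408) were the others called at 3 h, both under 1 CPM. At 7 h Lta was called (1.04, edgeR adjusted p = 0.00992) and Tnfsf18 was not (-1.73, edgeR adjusted p = 0.158). Fasl and Cd40lg, ligands typical of T cells, had at most 3 reads in any library.

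Of the receptors of the TNF superfamily 20 of 28 were tested, with 3 higher and 0 lower in KO at 3 h, and 9 higher and 4 lower at 7 h. The count of higher receptors at 3 h is at the share of all genes. The 3 at 3 h were Tnfrsf8 (0.78), the receptor for Tnfsf8, Tnfrsf1b (0.5), the second TNF receptor, and Tnfrsf14 (0.55). At 7 h the smallest p values were those of Tnfrsf11a (-0.92), the RANKL receptor, Cd40 (0.57) and Tnfrsf13b (-0.39), a BAFF receptor. The median of the tested receptors was 0.09 at 3 h and 0.29 at 7 h.

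Of 9 genes for ligand shedding and processing 4 were higher and 0 lower in KO at 3 h, and 5 higher and 2 lower at 7 h. Adam17, the protease that releases soluble TNF, was higher by 0.22 at 3 h, Timp3, its inhibitor, by 0.75 at 3 h and 1.08 at 7 h, Furin by 0.45 at 3 h and 0.81 at 7 h, and Rhbdf2, a partner of Adam17, by 0.71 at 7 h. Of 17 receptor adaptors 8 were higher and 2 lower at 3 h, and 8 higher and 0 lower at 7 h, among them Traf1 (0.89 at 3 h and 1.37 at 7 h), Birc3 (0.44 at 3 h and 0.78 at 7 h), Traf3 (0.54 at 3 h) and Cflar (0.57 at 7 h). The list medians were 0.19 at 3 h and 0.2 at 7 h for processing, and 0.24 at 3 h and 0.21 at 7 h for adaptors.

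Of 15 genes that act on decay or translation of the Tnf transcript 10 were higher and 0 lower in KO at 3 h, and 7 higher and 2 lower at 7 h. Zfp36, encoding tristetraprolin, was higher by 0.45 at 3 h and 0.47 at 7 h, Zc3h12a, encoding Regnase-1, by 0.67 at 7 h, and Zfp36l1 by 1.45 at 7 h. Hnrnpd (0.49) and Khsrp (0.53), encoding AU-rich element binding proteins, were higher at 3 h. The median was 0.28 at 3 h and 0.25 at 7 h. For the difference in slope over ActD 0 genes passed in any of the 5 lists.

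Markers of other cell types were summed in the same libraries, because a culture from bone marrow can hold other cells. The 7 fibroblast markers summed to 32.2 to 34.3 CPM in KO and 15.6 to 18.9 CPM in WT at 3 h, and to 36.9 to 38.9 CPM in KO and 17.6 to 20.7 CPM in WT at 7 h, with 6 of 7 called higher at 3 h and 7 of 7 at 7 h. The 8 B and plasma cell markers summed to 78.4 to 84.5 CPM in KO and 53.1 to 57.4 CPM in WT at 3 h, with 3 called higher and 1 lower. Ighm was the largest of them, with a median of 41.9 CPM over the 36 libraries. The T and NK cell markers summed to 23.6 to 25.7 CPM in KO and 11.6 to 14.4 CPM in WT at 3 h, mostly Cd4 and Cd8a. These 2 went opposite ways at 3 h, Cd4 with 21.7 ± 1.1 CPM in KO and 7.96 ± 1.25 CPM in WT (1.45, called higher), and Cd8a with 2.19 ± 0.0767 CPM in KO and 4.32 ± 1.13 CPM in WT (-0.98, called lower), while Cd3e was at 0 in 25 of the 36 libraries and Trac in 28. The sums of the 8 neutrophil markers overlapped at 3 h (602 to 742 CPM in KO, 629 to 729 CPM in WT) and were apart at 7 h (867 to 904 CPM in KO, 579 to 598 CPM in WT). Only 2 of the 8 were called higher at 7 h and 0 lower, with a list median of 0.21. S100a9 and S100a8 were the largest of them, with medians of 322 and 236 CPM over the 36 libraries. The mast cell markers summed to 4.65 to 6.86 CPM in KO and 3.61 to 4.54 CPM in WT at 3 h, and the dendritic cell markers to 22.7 to 25.1 CPM in KO and 19.0 to 19.2 CPM in WT. At 7 h the dendritic cell markers summed to 34.9 to 35.6 CPM in KO and 18.2 to 19.5 CPM in WT, and the T and NK cell markers overlapped (19.7 to 22.0 CPM in KO, 17.9 to 21.2 CPM in WT). The dendritic cell sum was mostly Ccr7, with 18.4 ± 1.09 CPM in KO and 10.7 ± 0.241 CPM in WT at 3 h, and 32.8 ± 0.342 CPM in KO and 16.3 ± 0.984 CPM in WT at 7 h. Of the 5 dendritic cell markers tested 1 was higher and 2 were lower in KO at 3 h (Siglech, -0.95, and Clec9a, -1.39), with a list median of -0.44, and 2 were higher and 1 lower at 7 h (Clec9a, -2.24). Several of these sums were thus higher in KO together with Tnf, Tnfsf4, Tnfsf9 and Tnfsf15, and their part in the result was not tested.

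For each ligand the 3 genes with the most similar course were found by Pearson's r of mean log2 CPM over the 12 groups, among 8219 genes with a mean of at least 5 CPM. These are descriptions over group means that share genotypes, times and scaling. Tnf was closest to Ier3 (r = 0.987), Zfp36 (0.983) and Clec2d (0.959), Tnfsf9 to Mdm2 (0.982), Ankrd33b (0.972) and Usp31 (0.972), and Tnfsf4 to Uap1 (0.982), Aebp2 (0.977) and Csf1 (0.977). Among the genes closest to Tnfsf10 were Racgap1 (0.981) and Gpsm2 (0.979), and those closest to Tnfsf12 were Tbxas1 (0.992), Adssl1 (0.992) and Mtmr11 (0.99). Tnfsf15 had less close matches, Plaur (0.955), Cxcl3 (0.952) and Osbpl3 (0.935). Tnfsf13b was closest to Foxo4 (0.99), Slc24a3 (0.988) and Pdia4 (0.983), Tnfsf14 to Lin9 (0.981), Relch (0.978) and Nr1d2 (0.974), and Tnfsf8, the least expressed, to Dnmt3a (0.892), Mex3c (0.887) and Ccnd2 (0.88).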

How the data were processed

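Per the labels' protocols, macrophage poly(A) RNA was sequenced as single-end libraries, and the submitters' processing notes name GSNAP and the GRCm38 build. How reads were counted over genes, on which annotation and with which strand setting, is not given in the sources used here. For 52636 genes per library the authors deposited a raw read count, an RPKM and the gene width. Counts over all genes made up 90.86 to 91.76% of the library totals that the deposited RPKM imply. Symbols came from GENCODE M21, in which 52489 identifiers matched and 147 did not.

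Counts were scaled by TMM and tested with edgeR 4.0.16 (R 4.3.3) by quasi-likelihood F tests, Benjamini-Hochberg adjusted over all 13748 genes kept by filterByExpr (13537 in the slope model), at 0.05. One model held the 12 groups over 36 libraries, and one held hours of ActD as a number within each genotype over 30 libraries. The common biological coefficient of variation was 7.5%. The SE is the absolute log2 fold change divided by the square root of F. RPKM was used only for levels between genes, and TMM-scaled CPM for a gene across groups. Percent left is the mean CPM with ActD over that without. The code was tested on simulated data.

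The 3 libraries of a group are 3 mice per the labels, but libraries carry no mouse number. Mice may be shared between conditions, so p-values may be too small. The members, gene lists, comparisons at single ActD times and alternatives were chosen with earlier results of these data known. The text names all 9 members, the 3 genes of each pathway list with the smallest p at 3 h and 7 h, and the 3 genes most like each member, except that 1 gene most like Tnfsf10 is not reported here. Alternatives were RLE scaling, scaling to 24 ribosomal protein and elongation factor genes, DESeq2 1.42.0, no filter, a filter of 1 CPM in 3 libraries, an adjusted p of 0.01, fits of only the libraries compared, slopes over 0 to 2 h, 4 h of ActD minus none, and leaving out each library. The contrast of 4 h minus 0.5 h of ActD was chosen after seeing the data.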

Additional observations from a re-analysis of the deposited data

Results flagged for a closer look

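The genotypes differed in their change over time for several ligands, by a test of the difference itself (an interaction term in edgeR, KO change minus WT change). From 3 h to 7 h of R837 the difference was 2.36 for Tnfsf15, whose KO libraries were higher at 7 h (0.67) and whose WT libraries were lower (-1.68). It was 0.29 for Tnf, which fell less in KO (-0.35) than in WT (-0.65), and -0.59 for Tnfsf12, which fell further in KO (-1.71) than in WT (-1.13). At 7 h of R837 against 3 h of R837 with 4 h of ActD, which shares the 7 h libraries, the difference was 2.21 for Tnfsf15, 0.85 for Tnfsf10, -0.64 for Tnfsf12 and 0.26 for Tnf. Over all genes 12.3% passed in the first of these tests and 14.6% in the second. Scaled to the ribosomal genes, neither Tnf difference passed (0.1 and -0.01), nor did that of Tnfsf10 (0.58). Both Tnf differences also lost their call without a filter on low counts (0.28 and 0.22). Groups of 3 libraries are too small to test for single libraries that stand apart.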

How the results depend on the processing

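No paired analysis was possible because the labels give the libraries no replicate numbers. Over the members, 675 values of called results were recomputed with 1 library left out, of which 654 kept their direction and call, 21 lost the call and none turned round, while 2 uncalled results were gained. Under the other alternatives 603 of 627 such values kept both, 22 lost the call and 2 turned round, while of the uncalled results 6 were gained and 2 turned round into a call. An uncalled value that changed sign without being called was not counted as turned round.

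Scaling to the ribosomal genes turned round Tnfsf15 at 7 h of R837 against 4 h of ActD in KO (0.41, edgeR adjusted p = 0.00849), the Tnf genotype difference in that comparison (-0.01) and the Tnfsf13b slopes (-0.01 in KO and -0.13 in WT). With it 8 members were called for the slope in WT, against 5 by TMM, where 9814 of all 13537 genes were called, against 9514. For the genotype difference at 7 h against 4 h of ActD 2 members were called, against 4, and 3010 of all 13748 genes, against 2013. Of the 24 ribosomal protein and elongation factor genes 1 was itself called higher and 7 lower in KO at 3 h, and 0 at 7 h.

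It moved the split of all called genes in most comparisons. In KO minus WT, genes higher and lower numbered 3591 and 476 at 3 h (2087 and 1731 by TMM), 2135 and 664 at 0.5 h of ActD (1883 and 1743), 448 and 2307 at 1 h (1032 and 1364), 2595 and 848 at 2 h (2023 and 2123), and 4827 and 657 at 4 h (2439 and 2457). Slopes rose for 703 and fell for 7917 genes in KO (4379 and 4841 by TMM), and 677 and 9137 in WT (4803 and 4711). At 7 h against 4 h of ActD 7123 were higher and 2498 lower in KO (5224 and 4963), and 8531 and 1508 in WT (5216 and 5132). At 7 h against 3 h they were 2930 and 4810 in KO (3946 and 4358), with genotype differences of 269 and 1593 (749 and 941), and of 218 and 2792 at 7 h against 4 h of ActD (922 and 1091). The members called in KO minus WT were the same in number, except 5 in place of 6 at 4 h of ActD.

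Besides KO minus WT at 3 h without KO replicate 1 (2202 genes) or WT replicate 3 (2375), counts of all genes that moved by more than 1.5 times were those at an adjusted p of 0.01 (2173 at 3 h, 2188 at 0.5 h, 1375 at 1 h and 2574 at 2 h of ActD, against 3818, 3626, 2396 and 4146, and 1066 and 1082 for the genotype differences, against 1690 and 2013), KO minus WT at 0.5 h in a fit of only those libraries (2047 against 3626), and the slope difference (9 by edgeR, 16 by DESeq2, 40 at 4 h minus none, 20 at 4 h minus 0.5 h, 3 at an adjusted p of 0.01, 0 over 0 to 2 h, and 3 to 10 with 1 library left out). Reads limit Tnfsf8 and Tnfsf13b throughout, and Tnfsf4 and Tnfsf14 at 7 h.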
